A study of Mus musculus with 3 samples.

Results

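Activated tumour cDC1s were compared here: cluster 8 of the deposited cDC1 clusters, led by *Ccr7* and *Il12b*, and cluster 10, led by *Cxcl9* and *Cxcl10*. The paper proposes that both might be endpoints of activation. Cells were taken by the authors' own cluster number, with no filter added. Of the 5806 cDC1s in the deposited cell table, 255 were in cluster 8 and 76 in cluster 10, so the comparison used 331 cDC1s out of 30209 barcodes in all. *Ccr7*, *Il12b*, *Cxcl9*, *Cxcl10*, *Cd40* and *Cd274* were taken as known, though they stay among the genes tested and in the gene lists, and the question was what else separated both states.

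The cells came from tumours of the mouse fibrosarcoma line MCA205 LA-OVA, which carries a model antigen, harvested 5 days after injection into both flanks. Pre-cDCs, cDC1s and cDC2s were sorted by flow cytometry, mixed and sequenced with droplet scRNAseq, in which each captured transcript is counted by a unique molecular identifier (UMI). There was 1 library per genotype, each from tumours pooled over co-housed mice of both sexes on the C57BL/6J background, and mice in the study were 6 to 20 weeks old. The WT library came from 37 mice (25 males, 12 females), the sGSN-/- library from 31 mice (15 males, 16 females) and the sGSN-/-Clec9a-/- library from 27 mice (10 males, 17 females). The sGSN-/- mice lack secreted gelsolin, a plasma protein that masks filamentous actin, and the sGSN-/-Clec9a-/- mice lack in addition DNGR-1, the cDC1 receptor for that actin. All 3 genotypes carried the same tumour and were harvested on the same day, and no genotype had a second library.

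Conventional type 1 dendritic cells take up dead tumour cells and present their antigens on MHC class I to CD8 T cells. Activated cDC1s can switch on CCR7 and travel to lymph nodes, a change that goes with remodelling of the cytoskeleton, NF-kB signalling and costimulation, and interferons can induce in them ligands of CXCR3 and immunity-related GTPases. Interferon-gamma acts on gamma-activated sites and through IRF1, type I interferon through STAT2 and IRF9 on interferon-stimulated response elements.

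Median depth per cell over all libraries was close in both clusters. The median cell held 10867 UMIs and 2386 genes in cluster 8 and 11132.5 UMIs and 2597.5 genes in cluster 10. By library (WT, sGSN-/-, sGSN-/-Clec9a-/-) cluster 10 was higher in both measures. Its median cell held 12725, 11167 and 10369 UMIs against 12310.5, 11035.5 and 8459 in cluster 8. The medians of genes were 3043, 2707 and 2359.5 against 2446.5, 2418.5 and 2052. In the WT, sGSN-/- and sGSN-/-Clec9a-/- libraries cluster 8 had 84, 114 and 57 cells with 1032186, 1270403 and 515307 UMIs. Cluster 10 had 21, 27 and 28 cells with 282206, 310344 and 298768 UMIs, so a level in cluster 10 rests on fewer molecules. No barcode of either cluster occurred in another library's cells of these clusters, while 26 to 28 barcodes were shared between pairs of whole libraries. Among the 6% of barcodes with the highest doublet scores in each library were 11 cells of cluster 8 (4.31%) and 1 of cluster 10 (1.32%). They were kept, and without them 826 genes were higher in cluster 8 and 701 in cluster 10, against 796 and 683 with them, by the test described below.

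Both clusters carried cDC1 markers. All 15 markers of the list had UMIs in both, and *Xcr1*, the receptor for XCL1, was at 125, 139 and 182 CPM in cluster 8 against 202, 155 and 181 CPM in cluster 10 in the WT, sGSN-/- and sGSN-/-Clec9a-/- libraries, the order kept below. CPM are the UMIs of a gene per 1000000 UMIs of the sum over 1 library and cluster. The genes that give the states their names were as labelled, with *Ccr7* at 2412, 2424 and 1166 CPM in cluster 8 against 7.09, 3.22 and 70.3 CPM in cluster 10, and *Cxcl9* at 562, 376 and 611 CPM and 4745, 4982 and 4769.6 CPM. Over the whole list the summed CPM were 1987, 1898 and 2311 in cluster 8, 3951, 4128 and 3913 in cluster 10 and 5313, 5183 and 5203 in the other cDC1s. The list was thus lower in cluster 8 in each library, and its most abundant gene was *Irf8*. *Clec9a* was at 80.4, 92.9 and 0 CPM in cluster 8 against 120.5, 168 and 0 CPM in cluster 10, so no UMI was counted in the library whose mice lack the gene. *Gsn* was at 71.7, 81.9 and 109 CPM in cluster 8 against 145, 139 and 177 CPM in cluster 10. The knockout is of the secreted form alone, and UMIs counted per gene do not check it.

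Markers of other cells differed in level and in how evenly they were spread. Of 15 T cell markers none passed the filter on low counts, and they summed to 13.6, 46.4 and 9.70 CPM in cluster 8 against 3.54, 22.6 and 3.35 CPM in cluster 10. *Foxp3* and *Bcl11b* were at 0 in both, and *Cd247*, the most abundant over both, had 23 UMIs in cluster 8 and 0 in cluster 10. The 9 B cell markers summed to 25.2, 24.4 and 38.8 CPM and 53.2, 22.6 and 23.4 CPM, mostly from *Ighm*, with *Cd79a* and *Pax5* at 0 in both. The 17 tumour and stromal markers summed to 42.6, 30.7 and 42.7 CPM and 31.9, 38.7 and 23.4 CPM, with *Fn1* the most abundant and *Pdgfra*, *Pdgfrb*, *Lum* and *Cdh5* at 0. Neutrophil and mast cell markers (13) summed to at most 3.54 CPM in any sum, with *S100a8*, *S100a9* and *Ly6g* at 0. The lists of cells closer to dendritic cells were higher. The 20 macrophage and monocyte markers, led by *Lyz2*, summed to 1186, 334 and 659.8 CPM in cluster 8 against 585, 751 and 679 CPM in cluster 10, against 1377, 1240.0 and 1345 CPM in the other cDC1s, with *Vcan* at 0 in both clusters. The WT sum of cluster 8 stood apart there, at 804 CPM without *Lyz2* against 193 and 204 CPM in the other libraries. The 17 NK cell markers were led in cluster 8 by *Ccl5*, a chemokine that activated dendritic cells also make. Without *Ccl5* they summed to 286, 584 and 248 CPM in cluster 8 against 436, 506 and 395 CPM in cluster 10, with *Klrk1* at 169.5, 226 and 153 CPM and 333, 348 and 208 CPM the largest part in each sum. *Prf1* and *Eomes* were at 0 in cluster 10. The 14 cDC2 markers, led in cluster 8 by *Tbc1d4*, summed to 1327, 1115 and 827 CPM and 507, 1044 and 365 CPM, with *Clec4a4* and *Fcer1a* at 0 in both. Without *Tbc1d4* they were at 195, 98.4 and 93.1 CPM and, with more in each library, at 337, 857 and 244 CPM. The 13 pre-cDC and pDC markers, led by *Bst2*, summed to 477, 557 and 361 CPM and 627, 603 and 556 CPM, with *Ly6d*, *Cox6a2*, *Klk1* and *Smim5* at 0 in cluster 10. Without *Bst2* they were at 87.2, 47.2 and 60.2 CPM and at 241, 325 and 120.5 CPM, again higher in cluster 10 in each library. The part of these other cells in the results below was not tested.

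UMIs were summed per library and cluster, giving 3 sums against 3, and tested in edgeR by quasi-likelihood F-tests, with Benjamini-Hochberg adjustment and a threshold of 0.05. Of 4229 genes tested, 1479 (35.0%) passed the threshold, 796 (18.8%) with more in cluster 8 and 683 (16.2%) with more in cluster 10. The 3 values of each cluster did not overlap for 713 of the 796 and for 668 of the 683. These values are CPM from total UMIs, without the scaling factors of the test. A gene that passes with 3 sums against 3 will mostly not overlap, so these counts add no support to the calls. Differences towards cluster 8 were larger, with 230 genes at 4-fold or more against 52 towards cluster 10. Adjusted p-values here set the difference between the clusters against the spread of the 3 libraries within each. The clusters had been called on these same counts, so the p-values are no test that the clusters exist. The libraries are 3 genotypes used as replicates of a state, so their SD includes any difference between genotypes.

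The split between directions depended on the scaling. With the total UMIs alone in place of TMM factors, the median log2 fold change of all genes moved from 0.01 to -0.16, and 624 genes were then higher in cluster 8 and 972 in cluster 10. With upper quartile factors 708 and 817 genes passed. Without the WT library 556 genes were higher in cluster 8 and 394 in cluster 10, without the sGSN-/- library 558 and 381, and without the sGSN-/-Clec9a-/- library 944 and 753. Wherever they could be tested, all 1479 genes kept their direction under each of these 5 settings. Of the genes named here, *Actb*, *Actg1*, *Icosl*, *Cd83*, *Lgals3*, *Rsad2*, *Apaf1*, *Bcl2l11*, *Uqcrh*, *Sel1l*, *Hsp90ab1*, *Aldoa* and *Atp6v1b2* did not pass with the total UMIs alone, nor *Actb*, *Actg1*, *Lgals3*, *Rsad2*, *Apaf1*, *Uqcrh* and *Hsp90ab1* with upper quartile factors. For the factors of the IRF and STAT families, immediate early genes, lineage factors and lysosomal, glycolytic, Rab and cell cycle genes the sign of the list median changed with the total UMIs alone, and for uptake receptors with DESeq2, so only counts are given for these lists.

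The cluster assignment itself was varied by dividing each cell's UMIs at random into 2 sets, clustering all cDC1s on 1 set and comparing the clusters highest in *Ccr7* and in *Cxcl9* on the other. The cluster highest in *Cxcl9* then held 523 cells, 53 of them from cluster 10 and 344 from cluster 7, or at a finer resolution, chosen after seeing the data, 169 cells with 44 from cluster 10. The cluster highest in *Ccr7* held 221 and 225 cells, 213 and 215 of them from cluster 8. Of the 1479 genes, 1440 of 1477 tested and 1312 of 1346 tested kept their direction. The *Ccr7* side hardly changed and most cells of the *Cxcl9* side were not from cluster 10. Kept direction therefore cannot show that the calls against cluster 10 hold under another assignment. Among the genes that did not pass in either comparison were *Cxcl9* itself (log2 fold change -0.070 and -0.78) and *Serpina3g* (-0.39 and -0.87). Of the 1479 genes, those named below that turned in 1 of these comparisons were *Kit*, *Psma7*, *Znfx1*, *Irf1*, *Socs1*, *Socs3*, *Cish*, *Ripk1*, *Bcl3*, *Hspa1b*, *Lgals9*, *Stat2*, *Zbp1*, *Ddit3*, *Parp14* and *Itgae*. Of these, *Irf1*, *Cish*, *Bcl3*, *Hspa1b*, *Zbp1* and *Itgae* passed the threshold in the turned direction. Besides *Cxcl9* and *Serpina3g*, *Casp8*, *Psma7*, *Socs1*, *Ripk1* and *Ddit3* missed the threshold in both comparisons. Those that missed it in 1 were *Irf8*, *Gsn*, *Irf1*, *Cish*, *Bcl3*, *Kit*, *Znfx1*, *Socs3*, *Lgals9*, *Stat2*, *Parp14*, *Zyx*, *Jaml*, *Il15*, *Il10ra*, *Icosl*, *Irf2bp2*, *Ptpn1*, *Gadd45g*, *Gbp7*, *Gbp3*, *Tgtp1*, *Ly6a*, *Samhd1*, *Psma4*, *Gcsam*, *Mcl1*, *Diablo*, *Anxa7*, *Uqcrh*, *Hsp90aa1*, *Hsp90ab1*, *Ebp*, *Msmo1*, *Cyp51*, *Pfkp* and *Rab24*.

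Levels in the other 5475 cDC1s placed these genes, as a description without a test. Of the genes higher in cluster 8, 377 were at a lower mean level in the other cDC1s than in either cluster, 397 lay between and 22 were above both. Of those higher in cluster 10, 33 were lower in the other cDC1s than in either cluster, 491 lay between and 159 were above both. So for nearly all genes higher in cluster 10 cluster 8 was the lower of both states and also lower than the other cDC1s, whereas many genes higher in cluster 8 were above the other cDC1s in both states.

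**Figure D1:**
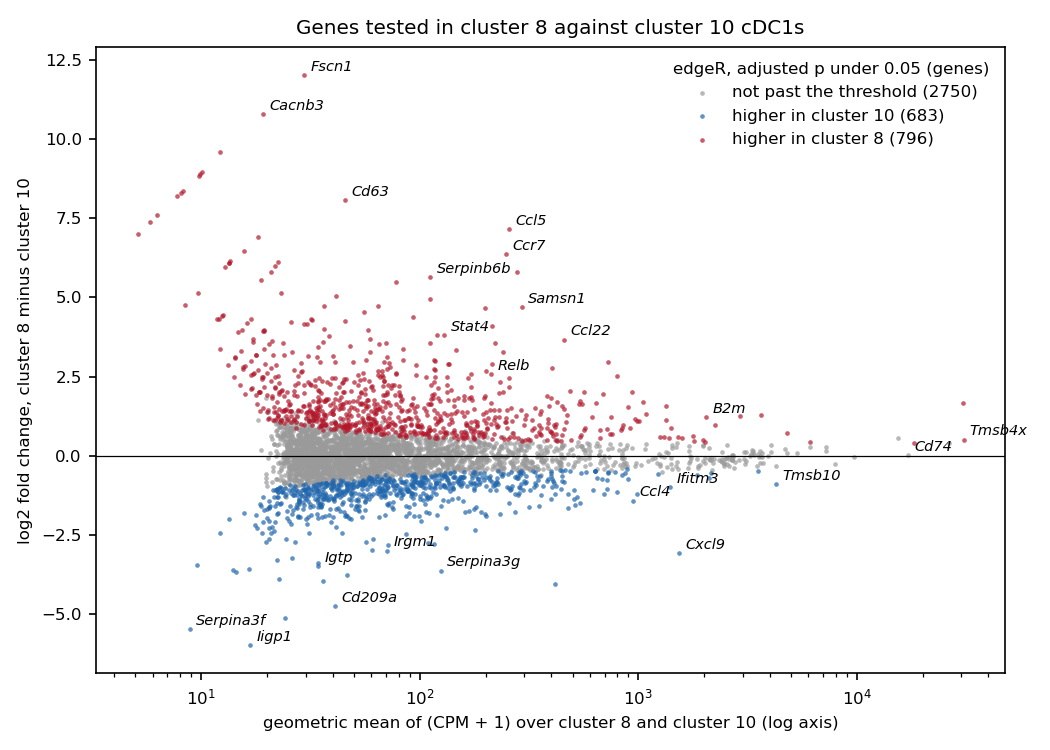
Each point is 1 of the 4229 genes tested, with the geometric mean of CPM + 1 over both clusters on a log axis and the fitted log2 fold change of cluster 8 minus cluster 10 on the vertical axis. Red points (796) and blue points (683) passed edgeR's adjusted threshold. For genes without UMIs in cluster 10, such as *Fscn1* and *Cacnb3*, the fitted value is not a bound.

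Some genes of cluster 8 had no UMI in cluster 10. *Fscn1* (ENSMUSG00000029581, chromosome 5, 142960343 to 142973185, plus strand) encodes fascin, which bundles actin in the processes of mature dendritic cells. It was at 1078, 874 and 469.6 CPM in cluster 8, and no *Fscn1* UMI was counted among the 891318 UMIs of cluster 10. All 3 cluster 8 values stood far above cluster 10, and the other cDC1s averaged 0.469 CPM. With the 3 UMIs that a count of 0 allows over cluster 10, a limit of 3.37 CPM, the gene was at least 260-fold higher in cluster 8. Genes without UMIs in cluster 10 passed the filter on low counts through cluster 8 alone, so no p-value is given for them. *Cacnb3* (ENSMUSG00000003352, chromosome 15, 98630840 to 98644529, plus strand), a subunit of voltage-gated calcium channels, was at 405, 380.2 and 246 CPM in cluster 8 and also had no UMI in cluster 10, a difference of at least 108-fold. *Scin* (ENSMUSG00000002565, chromosome 12, 40059769 to 40134228, minus strand), the actin-severing protein scinderin, was at 150.2, 142 and 161 CPM and at least 44.2-fold higher. For these 3 genes each library was higher in cluster 8. The same held for *Tmcc3*, an endoplasmic reticulum membrane protein that overlaps *Tmcc3os*, *Gm16155* and a microRNA gene, *Mreg*, a regulator of organelle transport, *Nudt17*, a nudix hydrolase gene that overlaps *Pias3*, *Fgfbp3*, *Atxn1*, which overlaps *Gmpr*, and *Adora2a*, an adenosine receptor. Their lower bounds lay between 17.6-fold for *Adora2a* and 30.00-fold for *Tmcc3*. *Cd63* (ENSMUSG00000025351, chromosome 10, 128900989 to 128912822, plus strand), a tetraspanin of late endosomes and exosomes, was at 637, 727 and 404 CPM in cluster 8 against 3.54, 3.22 and 0 CPM in cluster 10. With 1789 UMIs against 2, its ratio was 283, with a 95% counting interval of 78.2 to 2340.0.

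The motility list as a whole leaned the same way. Of its 92 members, 77 were tested, 27 were higher in cluster 8 and 12 in cluster 10, with a median log2 fold change of 0.28 beside 0.01 over all genes tested. With the total UMIs alone 22 and 17 were, with a median of 0.11. *Samsn1*, an adaptor that regulates actin in lymphocytes, was at 1648, 1496 and 881 CPM in cluster 8 against 63.8, 58.00 and 53.6 CPM in cluster 10 (log2 fold change 4.69 ± 0.26 (SE), edgeR, Benjamini-Hochberg adjusted p = 7.4e-08). The cluster 10 sums were close to each other and the cluster 8 sums far above them. Higher in cluster 8 were also *Marcksl1* (3.28), *Tbc1d4* (2.76), *Swap70* (2.75), *Cdc42ep3* (2.71), *Rhoc* (2.62) and *Myo1g* (2.16), given with their log2 fold changes, which act in membrane ruffling, small GTPase signalling and motor function. The main actins moved less, *Actb* with log2 fold change 0.41 ± 0.14 (SE), *Actg1* with log2 fold change 0.42 ± 0.14 (SE) and the actin-sequestering *Tmsb4x*, the member with the most UMIs, with log2 fold change 0.51 ± 0.14 (SE). Higher in cluster 10 were *Was*, the haematopoietic activator of the Arp2/3 complex, at 81.5, 54.8 and 50.2 CPM against 20.3, 14.96 and 19.4 CPM in cluster 8, and *Arhgap15* (-1.94), *Stap1* (-1.89), *Zyx* (-1.22), *Rac2* (-1.04) and *Tmsb10* (-0.90). *Gsn*, encoding the actin-severing gelsolin, was lower in cluster 8 in each library (log2 fold change -0.68). Subunits of the Arp2/3 complex such as *Arpc2* (0.05) and *Arpc3* (0.06) did not pass the threshold. Motility genes gave 22 and 7 calls in clusters 8 and 10 without the WT library, 21 and 6 without the sGSN-/- library, 30 and 16 without the sGSN-/-Clec9a-/- library and 27 and 9 with DESeq2. *Actb* (0.33), *Actg1* (0.36) and *Gsn* (-0.60) did not pass without the WT library and *Actb* (0.43), *Actg1* (0.47), *Tmsb4x* (0.49), *Rac2* (-0.73) and *Gsn* (-0.68) without the sGSN-/- library, with the log2 fold change of that fit in parentheses. With DESeq2 *Gsn* did not pass.

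Of 20 adhesion genes tested, 8 were higher in cluster 8 and 4 in cluster 10 (median 0.68). The integrin chains *Itga4* (log2 fold change 1.52 ± 0.22 (SE)) and *Itgb1* (log2 fold change 1.01 ± 0.19 (SE)), which pair as VLA-4, were higher in cluster 8, as were *Selplg*, the ligand of selectins (1.28), and the proteases *Mmp25* (2.63), *Adam8* (1.82) and *Adam19* (1.64). *Itgb7* (-1.57), *Itgae* (-1.18) and *Jaml* (-1.502), which bind epithelial or junctional ligands, were higher in cluster 10, though the values of *Itgae* overlapped between clusters. Adhesion genes gave 7 and 3 calls in clusters 8 and 10 without the WT library, 9 and 4 without the sGSN-/- library, 9 and 8 without the sGSN-/-Clec9a-/- library and 8 and 3 with DESeq2. *Itgae* (-0.47) did not pass without the WT library. With DESeq2 *Itgae* did not pass.

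Chemokines set the states apart by identity. Of 21 CC chemokine genes in the matrices 6 were tested. *Ccl5* (ENSMUSG00000035042, chromosome 11, 83525778 to 83530518, minus strand), a chemokine that draws T cells, was at 2959.7, 3383 and 1867 CPM in cluster 8 against 7.09, 35.4 and 20.1 CPM in cluster 10, with 14.9 CPM in the other cDC1s (log2 fold change 7.16 ± 0.35 (SE), edgeR, Benjamini-Hochberg adjusted p = 3.9e-08). Every cluster 8 sum was far above every cluster 10 sum, and cluster 10 was at the level of the other cDC1s. *Ccl22*, a CCR4 ligand, was at 2153, 1178 and 1244 CPM in cluster 8 against 397, 25.8 and 0 CPM in cluster 10 (log2 fold change 3.67 ± 0.72 (SE), edgeR, Benjamini-Hochberg adjusted p = 0.0013). The WT sum of cluster 10 held nearly all of its *Ccl22*, and DESeq2 gave the same direction without passing the threshold. *Ccl17*, the other CCR4 ligand, was at 499.9, 607 and 589.9 CPM in cluster 8 against 1201, 493 and 10.04 CPM in cluster 10. Here the WT sum of cluster 10 was the highest and the sGSN-/-Clec9a-/- sum the lowest of the 6, and the test did not pass (log2 fold change 0.22, 95% interval -1.16 to 1.59). *Ccl4*, a further CC chemokine, went the other way, at 670.4, 601 and 289 CPM in cluster 8 against 1743, 1147 and 1794 CPM in cluster 10 (log2 fold change -1.41 ± 0.26 (SE)). Its level in the other cDC1s, 1049, 1009 and 987 CPM, lay between both states. *Ccl3* varied between libraries within each state, at 110.4, 35.4 and 34.9 CPM and 14.2, 38.7 and 97.1 CPM, and did not pass (0.45). With DESeq2 *Ccl22* did not pass.

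Among the other chemokines *Cxcl16*, the ligand of CXCR6, was at 663, 789 and 582 CPM in cluster 8 against 248, 197 and 171 CPM in cluster 10 (log2 fold change 1.90 ± 0.19 (SE)). *Cx3cl1* had 120 UMIs in cluster 8 and 1 in cluster 10, ratio 38.00, 95% counting interval 6.68 to 1510, and *Cxcl2* had a log2 fold change of 2.20. Of 15 chemoattractant receptors tested, 6 were higher in cluster 8, counting *Ccr7*, and 5 in cluster 10. Besides *Adora2a*, cluster 8 had more *Ccrl2* (2.19), *Ptger4* (1.96), a prostaglandin E2 receptor, and *Gpr132* (0.91). *Cxcr4*, the receptor of CXCL12, had 149 UMIs in cluster 8 and 3 in cluster 10 (ratio 15.7, 95% counting interval 5.27 to 77.00). *Gpr141* (-3.94), *Gpr171* (-1.84), *P2ry14* (-1.07) and *Ccr2* (-0.79) were higher in cluster 10. *Ccr2* was at 289 CPM in the other cDC1s, above both states. Chemoattractant receptors gave 6 and 4 calls in clusters 8 and 10 without the WT library, 6 and 4 without the sGSN-/- library, 6 and 3 without the sGSN-/-Clec9a-/- library and 6 and 3 with DESeq2. *P2ry14* (-0.76) did not pass without the WT library, *Ccr2* (-0.58) without the sGSN-/- library and *P2ry14* (-0.98) and *Ccr2* (-0.71) without the sGSN-/-Clec9a-/- library. With DESeq2 *P2ry14* and *Ccr2* did not pass.

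Regulators of G protein signalling, which shorten chemokine receptor signals, were higher in cluster 8 for 5 of 6 genes tested (median 1.70). Without the WT library 4 were higher in cluster 8 and 1 in cluster 10. With clusters called on a part of the UMIs 3 and 3 were higher in the *Ccr7* and the *Cxcl9* cluster (median 1.09). At the finer resolution 4 and 0 were (median 1.99). *Rgs1* was at 1936, 2006 and 1743 CPM in cluster 8 against 167, 361 and 278 CPM in cluster 10 (log2 fold change 2.97 ± 0.24 (SE)). The guidance receptors *Plxnc1* (3.11) and *Plxnd1* (3.11) and *Sema7a* (2.34), a ligand of plexin C1, were higher in cluster 8 as well, 3 of the 5 semaphorin and plexin genes tested.

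**Figure D2:**
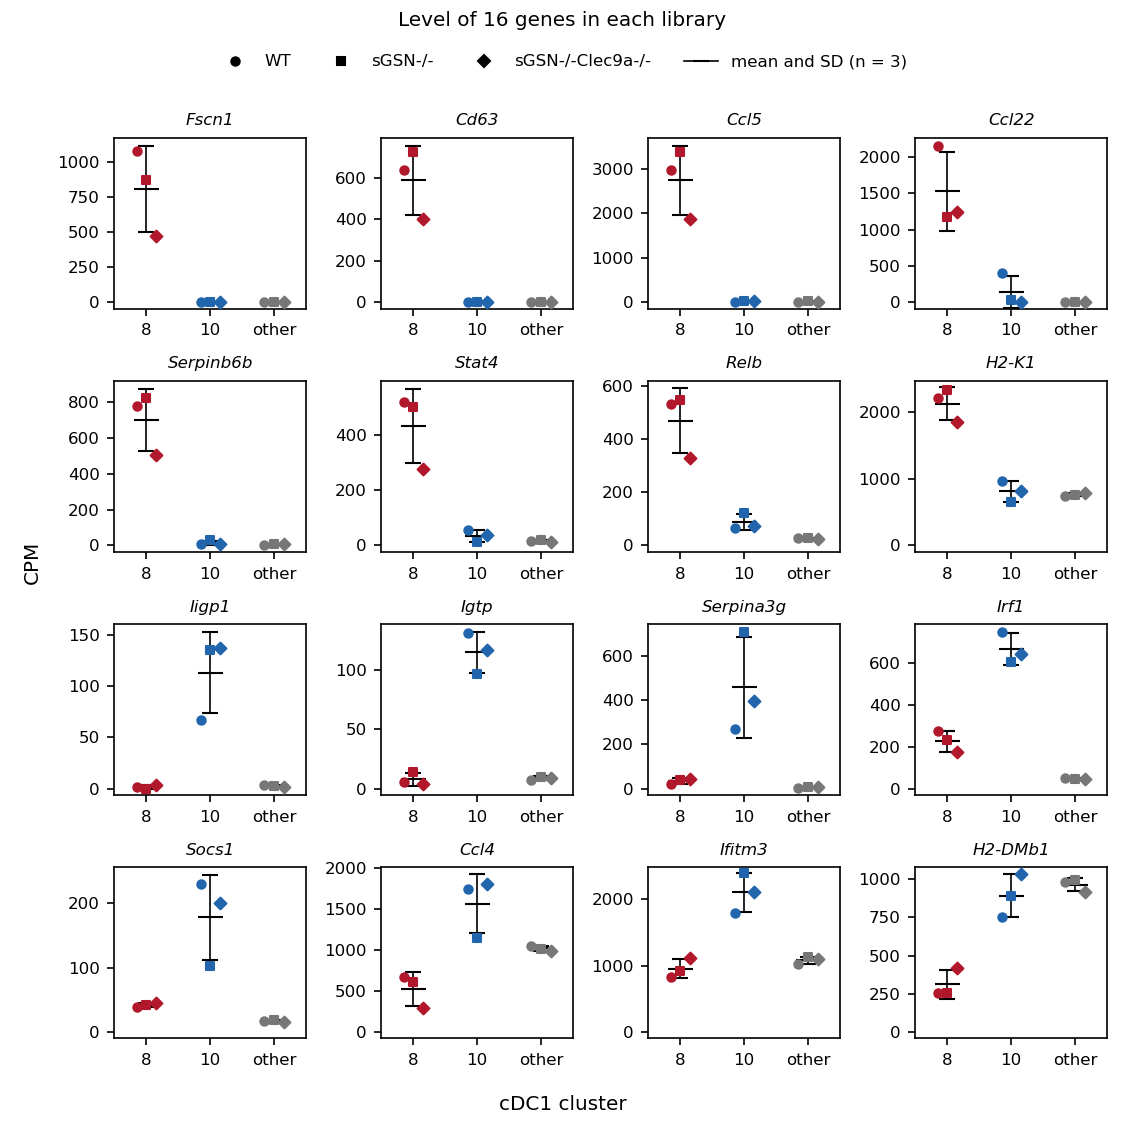
CPM of 16 genes in each library (circle WT, square sGSN-/-, diamond sGSN-/-Clec9a-/-) for cluster 8, cluster 10 and the other cDC1s, with the mean and SD of the 3 libraries, on linear axes from 0. *Fscn1*, *Cd63* and *Ccl5* are near 0 outside cluster 8, while *Irf1* and *Socs1* are highest in cluster 10 and lowest in the other cDC1s.

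Of 34 cytokine genes 8 were tested, and besides *Il12b* cluster 8 had more *Il15* (log2 fold change 2.87 ± 0.58 (SE)) and *Ebi3* (1.58). *Il1b* was at 1783, 1254 and 1712 CPM in cluster 8 against 3558, 3561 and 1609.9 CPM in cluster 10 (log2 fold change -0.69 ± 0.24 (SE)), where the sGSN-/-Clec9a-/- sum of cluster 10 fell within the range of cluster 8. *Il15ra*, which presents IL-15 to T cells and NK cells, was at 66.8, 102 and 83.4 CPM in cluster 8 and had 1 UMI in cluster 10. These were 242 UMIs against 1 (ratio 76.5, 95% counting interval 13.6 to 3040). Of 23 cytokine receptors tested, 7 were higher in cluster 8, among them *Il7r*, with 180 UMIs in cluster 8 and 3 in cluster 10 (ratio 19.00, 95% counting interval 6.39 to 92.9), and *Il21r* (2.39), *Il2rg* (1.95) and *Tnfrsf1b* (2.08), and 4 in cluster 10, *Kit* (-1.43), *Il6ra* (-1.38), *Tnfrsf1a* (-1.24) and *Il10ra* (-0.94). *Kit*, the receptor of stem cell factor, was at 86.2, 87.4 and 101 CPM and 358, 216 and 258 CPM. Among receptors for interferons and for growth factors of dendritic cells, *Ifngr1* (0.05), *Ifnar1* (0.58), *Flt3* (0.31) and *Csf2ra* (0.27) did not pass. *Csf2rb*, the partner chain of *Csf2ra* and the list's most abundant member, had 1197 UMIs in cluster 8 and 190 in cluster 10. Its log2 ratios with the TMM factors were 0.699, 1.391 and 1.432, with each counting interval above 0. *Ifngr1* was at 89.4 ± 21.5 CPM (mean ± SD, n = 3) in cluster 8 and 96.8 ± 55.6 CPM in cluster 10, below the 274 CPM of the other cDC1s. Cytokine receptors gave 7 and 2 calls in clusters 8 and 10 without the WT library, 6 and 3 without the sGSN-/- library, 7 and 6 without the sGSN-/-Clec9a-/- library and 7 and 4 with DESeq2. *Ebi3* (1.29), *Il1b* (-0.63), *Il6ra* (-0.85) and *Il10ra* (-0.90) did not pass without the WT library and *Il1b* (-0.34) and *Il10ra* (-0.75) without the sGSN-/- library. With DESeq2 *Il6ra* did not pass.

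In the TNF superfamily 10 of 43 genes were tested, 6 higher in cluster 8 and 2 in cluster 10 (median 1.85). Of all genes tested, 18.8% were higher in cluster 8 and 16.2% in cluster 10. Members with 1 or 2 UMIs in cluster 10 passed the filter on low counts through cluster 8 alone. The count and median thus describe members kept partly for being high in 1 cluster, and not the whole family. Without a filter 10 members were higher in cluster 8 and 2 in cluster 10. *Tnfrsf4*, encoding OX40, was at 145, 185 and 95.1 CPM in cluster 8 and had 1 UMI in cluster 10, against 434 (ratio 137, 95% counting interval 24.5 to 5430). *Tnfrsf9*, encoding 4-1BB, had 124 UMIs in cluster 8 and 2 in cluster 10 (ratio 19.6, 95% counting interval 5.32 to 164). Its ligand *Tnfsf9* (2.23), RANK (*Tnfrsf11a*, 3.17) and GITR (*Tnfrsf18*, 1.62) were higher in cluster 8. *Tnfrsf13b*, encoding TACI, was higher in cluster 10 (-2.71). Of 10 costimulatory ligands tested, 5 were higher in cluster 8. *Cd80* was at 195, 216 and 212 CPM and 85.04, 58.00 and 43.5 CPM (log2 fold change 1.91 ± 0.22 (SE)), and the differences of *Icosl* (1.04), *Cd86* (0.69) and *Cd83* (0.60) were smaller. The level of *Cd80* in the other cDC1s was 15.02 CPM, so cluster 10 lay between. *Cd24a* at 199.6, 158 and 229 CPM and 503, 760.4 and 706 CPM (log2 fold change -1.60 ± 0.22 (SE)) and *Cd48* (-0.64) were higher in cluster 10. Of 16 inhibitory ligands and receptors, 5 were higher in cluster 8 and 3 in cluster 10. *Cd200*, the ligand of CD200R, was at 271, 242 and 111 CPM and 14.2, 45.1 and 0 CPM (log2 fold change 3.55 ± 0.52 (SE)), and *Nectin1* (2.24) and *Pvr* (1.75), ligands of CD96 and TIGIT, moved with it. *Cd300a* (-2.98) and the galectins *Lgals1* (-0.85) and *Lgals9* (-0.80) were higher in cluster 10, and *Lgals3* (0.61) in cluster 8. The TNF superfamily gave 6 and 2 calls in clusters 8 and 10 without the WT library, 7 and 2 without the sGSN-/- library, 8 and 3 without the sGSN-/-Clec9a-/- library and 9 and 2 with DESeq2, where the last 2 fits tested more genes. Costimulatory ligands gave 3 and 2, 3 and 1, 7 and 1, and 7 and 1 in the same order. Inhibitory ligands and receptors gave 4 and 2, 5 and 2, 7 and 6, and 6 and 3 in the same order. *Icosl* (1.15), *Cd86* (0.64), *Lgals9* (-0.88) and *Lgals3* (0.48) did not pass without the WT library, *Icosl* (0.70), *Cd83* (0.76), *Cd48* (-0.43) and *Lgals9* (-0.71) without the sGSN-/- library and *Cd83* (0.34), *Cd48* (-0.61) and *Lgals3* (0.54) without the sGSN-/-Clec9a-/- library. With DESeq2 *Icosl*, *Cd48* and *Lgals9* did not pass. With the total UMIs alone *Icosl*, *Cd83* and *Lgals3* did not pass, and costimulatory ligands gave 3 and 2 calls.

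Signalling genes split by pathway. Of 24 NF-kB subunits, kinases and adaptors tested, 14 were higher in cluster 8 and 1, *Ripk1* (-0.81), in cluster 10, with a median log2 fold change of 0.69. *Relb*, the subunit of the non-canonical pathway, was at 529.9, 547 and 329.9 CPM in cluster 8 against 67.3, 122 and 73.6 CPM in cluster 10 (log2 fold change 2.58 ± 0.26 (SE), edgeR, Benjamini-Hochberg adjusted p = 6.4e-06). *Map3k14*, encoding the kinase NIK that drives this pathway, followed at 2.49. The adaptors *Traf6* (2.54), *Traf1* (1.73) and *Traf3* (1.36) and the subunits *Rel* (1.10), *Nfkb2* (1.08) and *Nfkb1* (0.89) were also higher in cluster 8, while *Rela* did not pass (0.50). Feedback inhibitors went with them. Of 17 tested, 10 were higher in cluster 8 (median 0.83), including *Zc3h12c* (2.22), *Nfkbib* (1.86), *Tnip1* (1.62), *Nfkbia* (1.54) and *Tnfaip3* (1.10). *Bcl3* was higher in cluster 10 (-0.63). *Ripk1* and *Bcl3* did not pass with no filter, thinning or doublets left out. With the other scalings and DESeq2 the medians ran from 0.51 to 0.73 and from 0.65 to 0.85. *Relb*, *Nfkb2* and *Nfkbia* averaged 26.3, 41.8 and 259 CPM in the other cDC1s and 87.8, 124 and 549.6 CPM in cluster 10, so these genes were above the other cDC1s in both states. NF-kB subunits, kinases and adaptors gave 12 and 0 calls in clusters 8 and 10 without the WT library, 11 and 1 without the sGSN-/- library, 11 and 1 without the sGSN-/-Clec9a-/- library and 10 and 0 with DESeq2. Feedback inhibitors gave 6 and 0, 6 and 0, 8 and 0, and 7 and 0 in the same order. *Ripk1* (-0.49), *Tnfaip3* (0.89) and *Bcl3* (-0.65) did not pass without the WT library, *Traf3* (1.03), *Tnip1* (1.26) and *Bcl3* (-0.58) without the sGSN-/- library and *Ripk1* (-0.71) and *Bcl3* (-0.62) without the sGSN-/-Clec9a-/- library. With DESeq2 *Ripk1*, *Traf3* and *Bcl3* did not pass. With the library as a replicate block *Ripk1* and *Bcl3* did not pass.

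Of 16 genes tested in a list of IRF and STAT factors, which also holds *Batf3* and *Irf2bp2*, 5 were higher in each state. All 5 higher in cluster 8 were STATs. *Stat4*, which transmits IL-12 signals, was at 523, 501 and 278 CPM in cluster 8 against 56.7, 12.9 and 36.8 CPM in cluster 10 (log2 fold change 3.81 ± 0.35 (SE), edgeR, Benjamini-Hochberg adjusted p = 3e-06), and *Stat5a* (1.77), *Stat6* (1.40), *Stat5b* (1.25) and *Stat3* (1.08) followed. Higher in cluster 10 were *Irf1*, *Stat2* (-1.28), *Batf3* (-1.04), *Irf2bp2* (-0.93) and *Irf8* (-0.54), the last a lineage factor of cDC1s together with *Batf3*. *Irf1* was at 274, 234 and 175 CPM in cluster 8 against 751, 606 and 643 CPM in cluster 10 (log2 fold change -1.37 ± 0.18 (SE)), with 47.4 CPM in the other cDC1s. With clusters called on a part of the UMIs, *Irf1* passed in the other direction (1.08). At the finer resolution *Irf1* did not pass (-0.15). *Irf7* (0.10) did not pass. Inhibitors of JAK signalling were also split. *Socs1*, which limits interferon-gamma signalling, was at 38.8, 42.5 and 44.6 CPM in cluster 8 against 230.3, 103 and 201 CPM in cluster 10 (log2 fold change -1.92 ± 0.28 (SE)), with *Socs3* (-1.59), *Cish* (-1.26) and *Ptpn1* (-1.03) in the same direction. *Socs2* was higher in cluster 8, at 306, 264 and 126 CPM against 14.2, 16.1 and 3.35 CPM (log2 fold change 4.54 ± 0.44 (SE)). These factors gave 4 and 4 calls in clusters 8 and 10 without the WT library, 4 and 3 without the sGSN-/- library, 5 and 7 without the sGSN-/-Clec9a-/- library and 4 and 5 with DESeq2. *Irf2bp2* (-0.50), *Stat5b* (1.25) and *Cish* (-0.97) did not pass without the WT library, *Irf2bp2* (-0.81), *Stat5b* (0.83), *Irf8* (-0.50) and *Cish* (-0.96) without the sGSN-/- library and *Irf8* (-0.42) without the sGSN-/-Clec9a-/- library. With DESeq2 *Irf2bp2* and *Stat5b* did not pass.

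Immediate early genes were higher in cluster 8 for 8 and in cluster 10 for 8 of 33 tested. *Gadd45b* (2.52), an NF-kB target, *Zfp36l1* (2.04) and *Nr4a3* (1.59) led towards cluster 8. *Gadd45g* (-1.91), *Atf3* (-1.20), *Jun* (-0.93), *Egr1* (-0.89) and *Fos* (-0.57) were higher in cluster 10. *Jun*, *Egr1* and *Fos* averaged 676, 724 and 2851 CPM in the other cDC1s, above both states. The MAP kinase phosphatases *Dusp5* (1.58) and *Dusp2* (1.58) were higher in cluster 8. Among 37 lineage and maturation factors, 9 were higher in cluster 8, led by *Zmynd15* (4.73), *Etv3* (1.81) and *Id2* (1.65), and 10 in cluster 10, led by *Bcl11a* (-3.23), *Arid5b* (-2.16) and *Arid5a* (-1.74). *Bcl11a*, a factor of early and plasmacytoid dendritic cells, was at 5.81, 9.45 and 5.82 CPM and 103, 83.8 and 53.6 CPM, with no overlap. Immediate early genes gave 7 and 6 calls in clusters 8 and 10 without the WT library, 8 and 2 without the sGSN-/- library, 10 and 9 without the sGSN-/-Clec9a-/- library and 8 and 5 with DESeq2. Lineage and maturation factors gave 9 and 7, 9 and 6, 9 and 11, and 9 and 9 in the same order. *Jun* (-0.95), *Egr1* (-0.53) and *Fos* (-0.31) did not pass without the sGSN-/- library and *Jun* (-0.41) without the sGSN-/-Clec9a-/- library. With DESeq2 *Fos* did not pass.

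*Iigp1*, an immunity-related GTPase that attacks pathogen vacuoles, was at 1.94, 0 and 3.88 CPM in cluster 8 against 67.3, 135 and 137 CPM in cluster 10 (log2 fold change -5.97 ± 0.56 (SE), edgeR, Benjamini-Hochberg adjusted p = 3.7e-06). Its mean CPM were 26.7 in cluster 7, 0.320 in cluster 9 and 2.71 over all other cDC1s. *Serpina3g* (ENSMUSG00000041481, chromosome 12, 104236245 to 104241939, plus strand), a serpin that inhibits cysteine cathepsins, was at 19.4, 38.6 and 44.6 CPM and 269, 709 and 395 CPM (log2 fold change -3.63 ± 0.36 (SE)), and its neighbour *Serpina3f* had 2 UMIs in cluster 8 and 40 in cluster 10 (a ratio of cluster 10 to cluster 8 of 63.2, 95% counting interval 16.4 to 540). Every cluster 10 value of these genes was above every cluster 8 value. How reads of such similar copies were assigned is not given in the sources used. *Cd209a* (ENSMUSG00000031494, chromosome 8, 3743397 to 3748984, minus strand), a C-type lectin also counted among the cDC2 markers, was at 8.72, 3.94 and 9.70 CPM and 109.8, 448 and 73.6 CPM (log2 fold change -4.75 ± 0.65 (SE)), highest in the sGSN-/- sum of cluster 10. Among the cluster 10 sums the cDC2 markers were also highest there. The Fc receptor *Fcgr4* was at 5.81, 2.36 and 0 CPM and 46.1, 41.9 and 56.9 CPM (log2 fold change -3.69 ± 0.48 (SE)), and *Fcgr1*, the high-affinity receptor, moved the same way (-2.71). Of the 4 macrophage and monocyte markers tested, 3 were higher in cluster 10. *Ifitm6* (-3.88), *Ms4a6d* (-3.76), *Treml2* (-3.61) and *Gpr141* were among the 10 smallest fitted fold changes.

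Guanylate-binding proteins (GBPs) and immunity-related GTPases (IRGs), effectors of cell-autonomous defence that interferons induce, were nearly all on the side of cluster 10. Of 27 genes in the matrices 10 were tested and 9 were higher in cluster 10, with a median log2 fold change of -2.35 beside 0.01 over all genes. With clusters called on a part of the UMIs the median was -1.35 and at the finer resolution -1.04, with 5 and 6 and with 1 and 4 members higher in the *Ccr7* and the *Cxcl9* cluster. *Igtp* was at 5.81, 14.2 and 3.88 CPM in cluster 8 against 131, 96.7 and 117 CPM in cluster 10 (log2 fold change -3.48 ± 0.35 (SE)). *Irgm1* was at 27.1, 18.9 and 25.2 CPM and 198, 180.4 and 248 CPM (log2 fold change -2.99 ± 0.25 (SE)). *Gbp5* was at 58.1, 45.7 and 32.99 CPM and 184, 119 and 184 CPM (log2 fold change -1.62 ± 0.25 (SE)). No value of 1 state reached the range of the other in these 3 genes. *Ifi47* (-2.48), *Gbp7* (-2.45), *Gbp3* (-2.25) and *Tgtp1* (-2.06) followed. *Gbp2* was at 67.8, 66.9 and 36.9 CPM and 56.7, 158 and 60.2 CPM and did not pass (95% interval -1.23 to 0.28). Levels of *Gbp2* and *Gbp5* in cluster 8 were still above the 3.44 and 3.79 CPM of the other cDC1s, whereas *Igtp* in cluster 8 was close to their 9.05 CPM. Cluster 7 averaged 38.3 CPM of *Igtp* and 27.9 CPM of *Gbp5*, between the other cDC1s and cluster 10. GBPs and IRGs gave 0 and 9 calls in clusters 8 and 10 without the WT library, 0 and 10 without the sGSN-/- library, 2 and 10 without the sGSN-/-Clec9a-/- library and 1 and 10 with DESeq2. The last 2 fits tested 5687 and 13759 genes in all. Their counts, here and in other lists, can hold members not tested in the main fit.

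Genes of the type I interferon response did not move as 1 block. Of 76 tested, 11 were higher in cluster 8 and 25 in cluster 10, with a median of -0.20 that was negative under each scaling. Its sign depended on the cluster assignment: with clusters called on a part of the UMIs the median was -1.07 (7 and 66 genes higher in clusters of *Ccr7* and *Cxcl9*), and at the finer resolution 0.49 (32 and 11). Those higher in cluster 8 included *Epsti1* (2.44), *Znfx1* (1.73), *Helz2* (1.51), *Sp140* (1.46), *Isg15* (1.05), *Rsad2* (1.17) and *Ifi27l2a* (0.84). *Isg15*, a ubiquitin-like modifier, was at 687, 749 and 382 CPM and 354, 309 and 325 CPM (log2 fold change 1.05 ± 0.22 (SE)). Higher in cluster 10 were *Ms4a6c* (-2.36), *Ly6a* (-2.05), *Ifitm1* (-1.76), *Slfn5* (-1.63), *Ifi205* (-1.48), *Samhd1* (-1.30) and *Zbp1* (-0.95). *Ifitm3*, a membrane protein that restricts viral entry, was at 835, 915 and 1110.0 CPM and 1797, 2397 and 2119 CPM (log2 fold change -0.98 ± 0.18 (SE)). Cluster 8 was at the level of the other cDC1s for *Ifitm3* (1082 CPM), and cluster 7 averaged 2546 CPM. The remaining 40 tested members did not pass, among them *Ifit2* (0.53), *Oasl2* (0.05), *Irf7* (0.10), *Xaf1* (-0.08), *Irf9* (-0.16) and *Usp18* (-0.31). These genes gave 7 and 16 calls in clusters 8 and 10 without the WT library, 6 and 20 without the sGSN-/- library, 15 and 25 without the sGSN-/-Clec9a-/- library and 8 and 20 with DESeq2. *Helz2* (1.14) did not pass without the WT library and *Rsad2* (0.65) and *Ifi27l2a* (0.80) without the sGSN-/- library. With DESeq2 *Rsad2* did not pass.

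Of 17 nucleic acid and danger sensing genes tested, 6 (35.3%) were higher in cluster 10, beside 16.2% of all genes tested. None was higher in cluster 8 and 11 did not pass (median -0.60). Those higher in cluster 10 were *Pycard* (-1.77), *Casp1* (-1.57), *Myd88* (-1.53), *Casp8* (-1.21), *Tmem173* (-1.03) and *Zbp1* (-0.95). *Pycard* and *Casp1* form the inflammasome with its sensors, *Myd88* serves Toll-like receptors and *Tmem173* encodes STING. With clusters called on a part of the UMIs *Casp8* did not pass at either resolution. *Zbp1* passed in the other direction at the finer one (0.93). *Pycard* was at 61.04, 49.6 and 50.5 CPM in cluster 8 against 174, 193 and 251 CPM in cluster 10, with 162 CPM in the other cDC1s. *Tlr3*, a receptor for double-stranded RNA typical of cDC1s, was at 23.3, 20.5 and 31.05 CPM and 49.6, 12.9 and 63.6 CPM, both below the 177 CPM of the other cDC1s. Sensing genes gave 0 and 6 calls in clusters 8 and 10 without the WT library, 0 and 7 without the sGSN-/- library, 0 and 6 without the sGSN-/-Clec9a-/- library and 0 and 7 with DESeq2.

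Because GBPs and IRGs moved together, their promoters were searched for 3 short motifs in RefSeq windows from 250 bases before to 50 bases after a gene's start (GRCm38.p6). The motifs were TTCNNNGAA (gamma-activated site), GAAANNGAA (interferon-stimulated response element) and GGNNTTTCC (kappaB site), on both strands, and they may overlap each other. Of the list's genes 16 matched the table by symbol, with 17 windows. They include genes that were not tested, such as *Irgm2* and *Tgtp2*, and *Gbp2*, which did not pass. *Ifi47* and *9930111J21Rik2*, both higher in cluster 10, held none of the 3 motifs. Of 4361 windows of the genes tested, 6.6%, 8.51% and 6.67% held the motifs in the order above. TTCNNNGAA was in 7 of them (41.2%) and in 8.30% of all 32851 windows of the table. GAAANNGAA was in 12 (70.6%) against 8.56% of all windows. GGNNTTTCC was in 2 (11.8%) against 5.82%. Of 22 windows of the NF-kB feedback inhibitors 6 held GGNNTTTCC (27.3%), 4 TTCNNNGAA (18.2%) and 4 GAAANNGAA (18.2%). Over all genes higher in cluster 10, 10.5% of 686 windows held TTCNNNGAA and 12.5% GAAANNGAA, and over genes higher in cluster 8 4.97% and 7.91% of 885. GGNNTTTCC was in 7.29% and 7.46% of these windows. A match is a run of letters and not a bound site. Windows of 4 GTPase genes higher in cluster 10 are printed for the arrangement of their motifs, and that of *Nfkbia*, higher in cluster 8, for its kappaB motifs, each 5′ to 3′ on the gene's strand with matches to any of the 3 motifs in capitals. They are *Gbp5* (chr3:142496684-142496983, plus strand), *Gbp7* (chr3:142530086-142530385, plus strand), *Igtp* (chr11:58199306-58199605, plus strand), *Irgm1* (chr11:48871371-48871670, minus strand) and *Nfkbia* (chr12:55492598-55492897, minus strand).
Gbp5: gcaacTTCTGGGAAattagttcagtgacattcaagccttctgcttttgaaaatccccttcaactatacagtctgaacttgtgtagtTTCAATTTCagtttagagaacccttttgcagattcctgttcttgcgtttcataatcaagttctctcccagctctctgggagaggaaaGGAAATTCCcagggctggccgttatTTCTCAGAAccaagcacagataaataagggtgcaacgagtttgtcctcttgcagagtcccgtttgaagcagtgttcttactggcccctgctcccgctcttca
Gbp7: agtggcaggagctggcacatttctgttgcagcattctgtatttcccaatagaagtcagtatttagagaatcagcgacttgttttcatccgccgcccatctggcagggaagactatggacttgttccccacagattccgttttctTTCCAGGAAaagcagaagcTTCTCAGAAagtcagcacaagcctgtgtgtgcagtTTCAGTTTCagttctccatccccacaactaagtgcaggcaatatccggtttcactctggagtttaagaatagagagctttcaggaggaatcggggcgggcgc
Igtp: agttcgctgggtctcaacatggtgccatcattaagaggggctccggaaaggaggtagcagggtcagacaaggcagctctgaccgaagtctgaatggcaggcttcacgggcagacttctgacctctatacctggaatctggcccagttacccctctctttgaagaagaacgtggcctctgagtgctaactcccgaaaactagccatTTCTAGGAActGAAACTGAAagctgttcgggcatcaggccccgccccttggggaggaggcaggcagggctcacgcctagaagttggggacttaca
Irgm1: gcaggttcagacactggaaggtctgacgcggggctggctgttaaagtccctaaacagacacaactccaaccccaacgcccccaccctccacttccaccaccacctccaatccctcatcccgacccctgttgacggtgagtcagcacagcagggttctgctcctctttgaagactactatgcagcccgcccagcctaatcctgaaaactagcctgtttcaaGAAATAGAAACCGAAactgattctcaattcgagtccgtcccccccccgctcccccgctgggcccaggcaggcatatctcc
Nfkbia: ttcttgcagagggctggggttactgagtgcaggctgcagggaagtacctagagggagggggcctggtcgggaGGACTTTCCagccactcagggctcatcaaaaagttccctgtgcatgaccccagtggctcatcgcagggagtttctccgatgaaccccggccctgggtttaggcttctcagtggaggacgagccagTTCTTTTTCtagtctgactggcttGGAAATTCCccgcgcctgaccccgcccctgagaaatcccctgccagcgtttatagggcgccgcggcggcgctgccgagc
*Gbp5* and *Gbp7* each held 2 matches to TTCNNNGAA and 1 to GAAANNGAA, and *Gbp5* also 1 to GGNNTTTCC. In *Igtp* 1 match to each interferon motif lay close together, and in *Irgm1* both GAAANNGAA matches overlapped. *Nfkbia* held 2 matches to GGNNTTTCC and 1 to GAAANNGAA.

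Antigen presentation genes were counted apart for class I and class II, with no test between these lists. Of 18 class I and peptide-loading genes tested, 8 were higher in cluster 8 and 2 in cluster 10 (median 0.37). *H2-K1*, a classical heavy chain, was at 2213, 2335 and 1849 CPM in cluster 8 against 964, 654 and 823 CPM in cluster 10 (log2 fold change 1.56 ± 0.17 (SE), edgeR, Benjamini-Hochberg adjusted p = 1.2e-05). *B2m*, the light chain, was at 3070.2, 3208 and 2354 CPM and 1368, 1582 and 1232 CPM (log2 fold change 1.21 ± 0.16 (SE)). Neither gene overlapped between states, and cluster 10 was near the 766 and 1077 CPM of the other cDC1s. *H2-D1* (0.99), the class I regulator *Nlrc5* (1.58) and the non-classical *H2-Q6* (3.67), *H2-Q7* (2.68) and *H2-Q4* (1.79), which are similar in sequence, followed. The peptide transporter *Tap1* was at 248, 272 and 349 CPM and 400.4, 389.9 and 351 CPM and did not pass (-0.23), and the chaperones *Calr* (-0.64) and *Pdia3* (-0.95) were higher in cluster 10. The proteasome activator genes *Psme2* (log2 fold change 0.97 ± 0.16 (SE)) and *Psme1* (0.55) were higher in cluster 8, while the inducible subunits *Psmb8* (-0.07), *Psmb9* (-0.04) and *Psmb10* (-0.03) did not pass and the assembly factor *Pomp* was higher in cluster 10 (-0.74). Of 36 proteasome core and cap subunits tested, counting these inducible ones, 2 passed, *Psma4* (-0.65) and *Psma7* (-0.47), both higher in cluster 10. With clusters called on a part of the UMIs 7 and 1 subunits were higher in the *Ccr7* and the *Cxcl9* cluster (median 0.03). At the finer resolution 5 and 0 were (median 0.12). Class I and peptide-loading genes gave 7 and 1 calls in clusters 8 and 10 without the WT library, 7 and 1 without the sGSN-/- library, 7 and 2 without the sGSN-/-Clec9a-/- library and 7 and 2 with DESeq2. *Calr* (-0.45), *Psme1* (0.46) and *Psma7* (-0.55) did not pass without the WT library, *Calr* (-0.58), *Psme1* (0.54), *Pomp* (-0.59), *Psma4* (-0.59) and *Psma7* (-0.46) without the sGSN-/- library and *Psma7* (-0.36) without the sGSN-/-Clec9a-/- library. With DESeq2 *Psma7* did not pass.

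Of 14 class II presentation genes tested, 1 was higher in cluster 8 and 5 in cluster 10 (median -0.20). With clusters called on a part of the UMIs 2 and 8 were higher in the *Ccr7* and the *Cxcl9* cluster (median -0.56). At the finer resolution 4 and 4 were (median 0.15). Class II chains did not pass the threshold, with log2 fold changes of 0.14 for *H2-Aa* (95% interval -0.21 to 0.50), 0.29 for *H2-Eb1* (-0.07 to 0.64) and 0.02 for *Cd74*, the invariant chain (-0.31 to 0.34). Genes that act on them differed. *H2-DMb1*, which exchanges peptides on class II, was at 258, 257 and 421 CPM in cluster 8 against 751, 893 and 1038 CPM in cluster 10 (log2 fold change -1.37 ± 0.23 (SE)), and *H2-DMa* (-1.20) and *H2-DMb2* (-1.17) were lower in cluster 8 too. *Ciita*, the class II transactivator, was at 52.3, 47.2 and 71.8 CPM and 276, 209 and 177 CPM (log2 fold change -1.82 ± 0.22 (SE)), and *March1*, the ligase that removes class II from the surface, at 26.2, 19.7 and 21.3 CPM and 106, 113 and 80.3 CPM (log2 fold change -1.98 ± 0.26 (SE)). The other cDC1s averaged 965, 872, 176 and 157 CPM of *H2-DMb1*, *H2-DMa*, *Ciita* and *March1*, nearer to cluster 10 than to cluster 8. *H2-Eb2* was the exception, at 112, 121 and 93.1 CPM in cluster 8 against 10.6, 3.22 and 6.69 CPM in cluster 10 (log2 fold change 4.15 ± 0.37 (SE)). Of 18 cross-presentation genes tested, 5 were higher in cluster 8, among them *Rap2a* (1.37), *Ncf1* (0.80) and *Cyba* (0.59), and 4 in cluster 10, among them *Wdfy4* (-1.001), needed for cross-presentation by cDC1s, and *Rac2* (-1.04). Of 17 uptake receptors tested, 6 were higher in cluster 8 and 4 in cluster 10, and with the total UMIs alone 3 and 5. Cluster 8 had more *Ly75* (2.71), encoding DEC-205, *Axl* (2.36) and *Timd4* (1.72), receptors for apoptotic cells, and cluster 10 more *Fcgrt* (-1.17) besides the Fc receptors and *Cd209a*. Among cDC1 markers 6 of 14 tested were higher in cluster 10 (median -0.58), with *Naaa*, a lysosomal amidase, at 288, 205 and 390.1 CPM and 1031, 963 and 917 CPM (log2 fold change -1.57 ± 0.21 (SE)) and *Gcsam* (-1.93), *Itgae*, *Batf3*, *Wdfy4* and *Irf8* in the same direction. Cross-presentation genes gave 1 and 1 calls in clusters 8 and 10 without the WT library, 2 and 0 without the sGSN-/- library, 4 and 4 without the sGSN-/-Clec9a-/- library and 4 and 2 with DESeq2. CDC1 markers gave 0 and 4, 1 and 4, 0 and 6, and 0 and 5 in the same order. Uptake receptors gave 4 and 4, 3 and 4, 5 and 6, and 4 and 4 in the same order. *Ncf1* (0.60), *Cyba* (0.53) and *Wdfy4* (-0.79) did not pass without the WT library and *Cyba* (0.59) and *Wdfy4* (-0.73) without the sGSN-/- library.

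Genes of cell survival and death leaned to cluster 8. Of 22 BCL2 family genes, caspases and their inhibitors tested, 12 were higher in cluster 8 and 4 in cluster 10 (median 0.69). *Bcl2l14* was at 322, 340.0 and 246 CPM in cluster 8 against 14.2, 48.3 and 60.2 CPM in cluster 10 (log2 fold change 3.03 ± 0.31 (SE)). The anti-apoptotic *Bcl2l1* (1.84), *Cflar* (1.79), *Birc2* (2.01) and *Mcl1* (0.68) and the near-identical *Bcl2a1a* (1.98), *Bcl2a1b* (1.70) and *Bcl2a1d* (1.49) were higher in cluster 8. So were *Pmaip1* (1.31), *Apaf1* (0.90) and *Bcl2l11* (0.74), which promote death, so the direction was not specific to inhibitors. The caspases *Casp6* (-1.91), *Casp1* and *Casp8* and the IAP antagonist *Diablo* (-1.12) were higher in cluster 10. Serpins divided by clade. *Serpinb6b* was at 781, 822 and 503 CPM in cluster 8 against 7.09, 29.00 and 10.04 CPM in cluster 10 (log2 fold change 5.64 ± 0.35 (SE)). *Serpinb9*, which inhibits granzyme B, was at 709, 548 and 448 CPM and 21.3, 12.9 and 26.8 CPM (log2 fold change 4.97 ± 0.29 (SE)), and *Serpinb1a* was also higher in cluster 8 (2.68). The 3 clade B serpins tested were thus high in cluster 8 and the 2 clade A serpins in cluster 10. BCL2 family genes and caspases gave 9 and 3 calls in clusters 8 and 10 without the WT library, 10 and 2 without the sGSN-/- library, 11 and 5 without the sGSN-/-Clec9a-/- library and 9 and 3 with DESeq2. *Mcl1* (0.62), *Bcl2l11* (0.45) and *Casp6* (-1.67) did not pass without the WT library, *Apaf1* (0.82), *Bcl2l11* (0.72), *Casp6* (-1.26) and *Diablo* (-1.02) without the sGSN-/- library and *Apaf1* (0.75) without the sGSN-/-Clec9a-/- library. With DESeq2 *Apaf1*, *Bcl2l11* and *Diablo* did not pass.

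Tetraspanins other than *Cd63* were higher in cluster 8 for *Tspan3* (3.98), *Cd81* (3.35), *Cd9* (1.12) and *Tspan33* (0.83), and *Cd53* was higher in cluster 10 (-0.90), out of 10 tested. Annexins were divided, with *Anxa3* at 142, 172 and 142 CPM in cluster 8 and 2 UMIs in all in cluster 10 (ratio 69.4, 95% counting interval 19.1 to 575), *Anxa4* (1.83) and *Anxa5* (0.68) higher in cluster 8, and *Anxa1* (-1.77), *Anxa6* (-1.20) and *Anxa7* (-0.76) higher in cluster 10. The calcium-binding *S100a6* (-1.13) and *S100a10* (-0.96) were higher in cluster 10, 2 of 6 S100 genes tested. Enzymes that modify the immune environment also differed in kind. *Il4i1*, an amino acid oxidase, was at 314, 372 and 388 CPM in cluster 8 against 103, 3.22 and 0 CPM in cluster 10 (log2 fold change 3.57 ± 0.57 (SE)), and like *Ccl22* it was highest in the WT sum of cluster 10 and did not pass with DESeq2. *Kmo*, of the kynurenine pathway, was at 23.3, 20.5 and 36.9 CPM and 234, 248 and 120.5 CPM (log2 fold change -2.81 ± 0.30 (SE)), and *Kynu* (-1.28) of the same pathway, *Entpd1* (-2.44), encoding the ATP-degrading CD39, and *Lta4h* (-1.95) were higher in cluster 10. Over this list 9 genes were higher in cluster 8 and 11 in cluster 10 of 25 tested. These enzymes gave 6 and 6 calls in clusters 8 and 10 without the WT library, 5 and 8 without the sGSN-/- library, 11 and 11 without the sGSN-/-Clec9a-/- library and 10 and 7 with DESeq2. *Tspan33* (0.87), *Cd53* (-0.83), *Anxa5* (0.64), *Anxa7* (-0.69) and *Kynu* (-0.98) did not pass without the WT library and *Tspan33* (0.85), *Cd53* (-0.50), *Anxa7* (-0.86) and *S100a10* (-0.69) without the sGSN-/- library. With DESeq2 *Tspan33*, *Anxa7* and *Il4i1* did not pass.

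Of 76 nuclear genes of oxidative phosphorylation tested, 30 were higher in cluster 10 and 1, *Uqcrh* (0.47), in cluster 8, and with the total UMIs alone 49 and 0. Their median log2 fold change was -0.46, and it lay between -0.63 and -0.43 with the other scalings and DESeq2. *Cox7b*, of complex IV, was at 258, 276 and 274 CPM in cluster 8 against 620.1, 606 and 579 CPM in cluster 10 (log2 fold change -0.99 ± 0.16 (SE)), and *Ndufa9* (-1.46), *Ndufs8* (-1.10) and *Ndufa8* (-1.09) of complex I had the largest differences. Both *Cox7b* ranges were apart, with 423 CPM in the other cDC1s between them. Of genes encoded in the mitochondrial genome none of the 12 tested passed in the main edgeR fit, which found 1 at an unadjusted p under 0.05, and none passed with DESeq2. Their median was -0.25, and with the total UMIs alone 7 passed towards cluster 10. With the library as a replicate block 1 passed in each direction, and with upper quartile factors 1 towards cluster 10. Towards cluster 8, 2 passed without a filter and 2 without the sGSN-/-Clec9a-/- library. Ribosomal proteins depended on the scaling and the model. Of 81 tested, 6 were higher in cluster 10 and 1 in cluster 8 (median -0.16), and with the total UMIs alone 37 were higher in cluster 10. With the library as a replicate block 19 were. *Rps27l*, a p53-responsive paralogue of *Rps27*, was the member higher in cluster 8, at 2065, 1862 and 1258 CPM against 599, 371 and 489 CPM (log2 fold change 2.002 ± 0.21 (SE)), whereas *Rps27* itself did not pass (0.12). Oxidative phosphorylation gave 0 and 15 calls in clusters 8 and 10 without the WT library, 0 and 15 without the sGSN-/- library, 1 and 29 without the sGSN-/-Clec9a-/- library and 0 and 18 with DESeq2. Ribosomal proteins gave 1 and 2, 1 and 0, 1 and 9, and 1 and 4 in the same order. *Uqcrh* (0.46) did not pass without the WT library and *Uqcrh* (0.44) without the sGSN-/- library. With DESeq2 *Uqcrh* did not pass.

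Endoplasmic reticulum folding genes were on the side of cluster 10. Of 28 genes of the unfolded protein response tested, 17 were higher in cluster 10 and 3 in cluster 8 (median -0.61, between -0.79 and -0.57 with the other scalings and DESeq2). The genes higher in cluster 10 included the chaperones *Hspa5* at 626, 563 and 704 CPM and 1088, 1034 and 887 CPM (log2 fold change -0.50 ± 0.16 (SE)) and *Hyou1* (-1.43), the disulphide isomerases *Pdia4* (-1.40) and *Pdia6* (-1.08) and the transcription factors *Xbp1* (-0.86) and *Atf6* (-1.13). *Hspa5* averaged 1032 CPM in the other cDC1s, so cluster 8 was the low state for this gene. *Herpud1* (1.45) and *Sel1l* (0.89), of the degradation branch, and *Ddit3* (1.32) were higher in cluster 8. Cytosolic chaperones were mostly below the threshold, with *Hspa1b* (1.29), *Hsp90aa1* (0.80) and *Hsp90ab1* (0.50) higher in cluster 8 and *Fkbp4* (-1.60) in cluster 10 of 19 tested. Chaperones gave 0 and 1 calls without the WT library, 1 and 1 without the sGSN-/- library and 5 and 0 without the sGSN-/-Clec9a-/- library. With clusters called on a part of the UMIs 0 and 7 were higher in the *Ccr7* and the *Cxcl9* cluster (median -0.13), and at the finer resolution 6 and 3 (median 0.33). The unfolded protein response gave 1 and 8 calls in clusters 8 and 10 without the WT library, 1 and 6 without the sGSN-/- library, 2 and 17 without the sGSN-/-Clec9a-/- library and 1 and 9 with DESeq2. *Hspa5* (-0.44), *Hyou1* (-1.05), *Xbp1* (-0.88), *Atf6* (-0.97), *Sel1l* (0.99), *Ddit3* (1.26), *Hspa1b* (1.10), *Hsp90aa1* (0.56) and *Hsp90ab1* (0.51) did not pass without the WT library, *Hspa5* (-0.37), *Hyou1* (-1.09), *Xbp1* (-0.45), *Atf6* (-0.96), *Sel1l* (0.95), *Ddit3* (0.97), *Hsp90aa1* (0.73) and *Hsp90ab1* (0.34) without the sGSN-/- library and *Sel1l* (0.80) and *Fkbp4* (-0.9995) without the sGSN-/-Clec9a-/- library. With DESeq2 *Hspa5*, *Hyou1*, *Xbp1*, *Atf6*, *Sel1l* and *Ddit3* did not pass.

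Sterol genes were counted apart for synthesis and export. Of 11 sterol synthesis genes tested, 5 were higher in cluster 10 (median -0.82). Without the WT library the median was -0.23. With clusters called on a part of the UMIs 2 and 2 were higher in the *Ccr7* and the *Cxcl9* cluster (median -0.30). At the finer resolution 1 and 8 were (median -1.37). *Fdps*, of the mevalonate pathway, was at 102, 121 and 25.2 CPM in cluster 8 against 358, 245 and 358 CPM in cluster 10 (log2 fold change -1.69 ± 0.34 (SE)), followed by *Ebp* (-1.55), *Msmo1* (-1.30), *Cyp51* (-1.22) and *Insig1* (-1.15). Of 7 genes of cholesterol efflux and lipid storage, 5 were higher in cluster 8 (median 1.30), among them the exporter *Abcg1* (log2 fold change 1.97 ± 0.39 (SE)), the lysosomal carrier *Npc2* (1.30), the desaturase *Scd1* (2.501) and the oxysterol receptor gene *Nr1h2* (1.07). *Abcg1* was at 81.4, 112 and 101 CPM and 10.6, 54.8 and 16.7 CPM, without overlap. Glycolytic genes went both ways. *Eno3*, the muscle-type enolase, had 412 UMIs in cluster 8 and 2 in cluster 10 (ratio 65.2, 95% counting interval 17.9 to 540), and *Pfkfb3* (1.74), *Slc2a6* (1.42), *Pgk1* (0.75) and *Aldoa* (0.60) were also higher in cluster 8. *Hk2* (-1.37), *Pfkp* (-0.83) and *Ldha* (-0.73) were higher in cluster 10, 5 against 3 of 14 tested. Sterol synthesis gave 0 and 2 calls in clusters 8 and 10 without the WT library, 0 and 4 without the sGSN-/- library, 1 and 5 without the sGSN-/-Clec9a-/- library and 0 and 3 with DESeq2. Efflux and storage gave 4 and 0, 6 and 0, 7 and 0, and 5 and 0 in the same order. Glycolysis gave 3 and 3, 2 and 1, 7 and 3, and 4 and 3 in the same order. *Msmo1* (-1.22), *Cyp51* (-0.80), *Insig1* (-1.12), *Nr1h2* (0.75), *Pgk1* (0.64) and *Aldoa* (0.42) did not pass without the WT library, *Msmo1* (-1.42), *Insig1* (-1.18), *Pfkfb3* (1.05), *Slc2a6* (1.29), *Aldoa* (0.56), *Pfkp* (-0.57) and *Ldha* (-0.65) without the sGSN-/- library and *Cyp51* (-0.92) without the sGSN-/-Clec9a-/- library. With DESeq2 *Msmo1*, *Insig1*, *Nr1h2*, *Pfkfb3*, *Slc2a6* and *Aldoa* did not pass.

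Of 26 lysosomal genes tested 7 were higher in cluster 8 and 1 in cluster 10. *Lgmn*, an asparaginyl endopeptidase that processes antigen, was at 274, 277 and 139.7 CPM in cluster 8 against 49.6, 32.2 and 26.8 CPM in cluster 10 (log2 fold change 2.87 ± 0.31 (SE)), and *Laptm4b* (3.29) and *Lamp1* (2.08) followed. Among 16 vacuolar ATPase subunits 5 were higher in cluster 8, led by *Atp6v0c* (0.87) and *Atp6v1b2* (0.81), while *Atp6v0a2* was higher in cluster 10 (-1.69). With the total UMIs alone 1 subunit was higher in cluster 8 and 2 in cluster 10. Of 27 Rab GTPases 7 were higher in cluster 8, with *Rab8b* at 1038, 845 and 753 CPM against 389.8, 274 and 295 CPM (log2 fold change 1.63 ± 0.18 (SE)), *Rab21* (1.91) and *Rab9* (1.67), and *Rab24* in cluster 10 (-1.37). Of 15 cell cycle genes tested, *Tubb5* (1.46) was higher in cluster 8 and *Cdkn2d* (-1.65), *Cdk4* (-1.26), *Ccnd1* (-1.21) and *Ccnd3* (-0.92) in cluster 10. *Cdkn1a* and *Ccnd2* did not pass, with means of 604 and 563 CPM and of 491 and 491 CPM, and both were above the 111 and 52.6 CPM of the other cDC1s. TRIM and PARP genes gave 3 and 1 genes higher in cluster 8 and 2 and 1 (*Parp14*, -0.64) in cluster 10, of 12 and 6 tested. Lysosomal genes gave 6 and 1 calls in clusters 8 and 10 without the WT library, 6 and 0 without the sGSN-/- library, 9 and 4 without the sGSN-/-Clec9a-/- library and 8 and 0 with DESeq2. Vacuolar ATPase subunits gave 1 and 1, 2 and 1, 3 and 1, and 2 and 1 in the same order. Rab GTPases gave 5 and 1, 3 and 1, 6 and 3, and 5 and 1 in the same order. *Atp6v1b2* (0.72), *Rab9* (1.36), *Cdk4* (-1.37) and *Parp14* (-0.73) did not pass without the WT library, *Atp6v1b2* (0.95), *Rab21* (1.58) and *Parp14* (-0.81) without the sGSN-/- library and *Atp6v1b2* (0.77), *Cdk4* (-0.90), *Ccnd3* (-0.67) and *Parp14* (-0.36) without the sGSN-/-Clec9a-/- library. With DESeq2 *Atp6v1b2*, *Rab21*, *Cdkn2d*, *Cdk4* and *Parp14* did not pass.

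**Figure D3:**
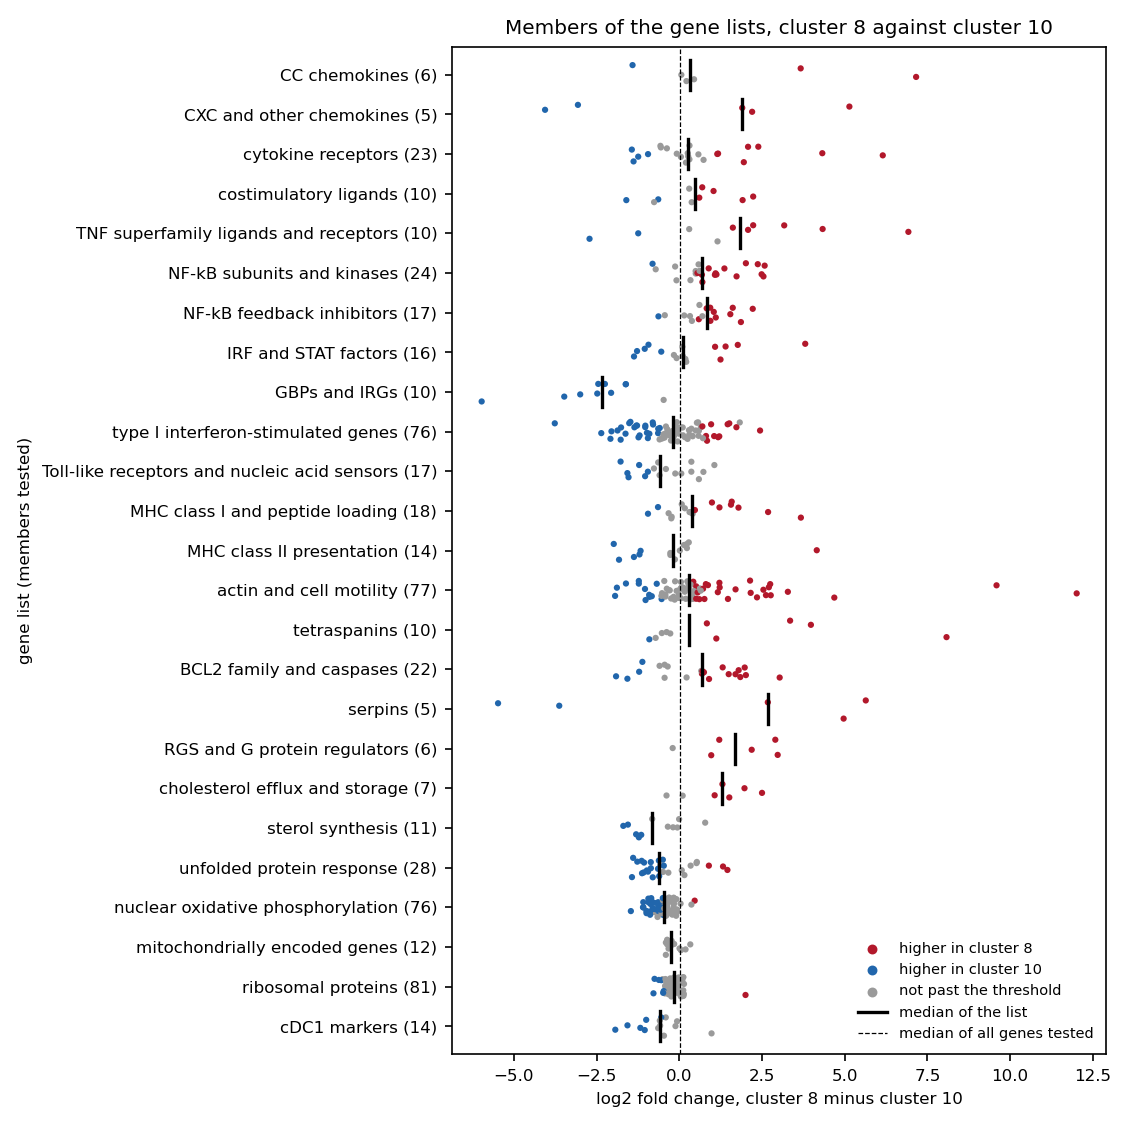
Log2 fold change of every tested member of 25 gene lists, with red points higher in cluster 8, blue points higher in cluster 10 and grey points not past edgeR's adjusted threshold. Black bars are list medians and the dashed line is the median of all 4229 genes at 0.01, and the GBP and IRG list has the lowest median (-2.35) of the lists drawn.

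Some abundant genes were held within narrow limits. For 155 genes the 95% interval of the log2 fold change lay within -0.5 and 0.5. Those with the highest mean CPM were *Cd74*, *H2-Aa* and 8 ribosomal protein genes, *Rps29*, *Rps28*, *Rps24*, *Rps27*, *Rpl39*, *Rps21*, *Rpl37* and *Rpl38*. *Cd74* was at 16604, 14442 and 18566 CPM in cluster 8 against 17041, 19407 and 18663 CPM in cluster 10, and *H2-Aa* at 6772, 6481 and 8752 CPM and 6899, 7927 and 7568 CPM. Their ranges overlapped.

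Among the cluster 8 sums the sGSN-/-Clec9a-/- library tended to be lowest for the genes of that state. It had the lowest of the 3 values for 533 of the 796 genes higher in cluster 8 (67.00%), beside 44.5% of all genes tested. *Fscn1*, *Cd63*, *Ccl5*, *Samsn1*, *Stat4* and *Relb* were each lowest there, as the values above show. In the same cluster it had the highest value for 327 of the 683 genes higher in cluster 10 (47.9%), beside 34.6% of all genes. Its cluster 8 sum was also the shallowest of the 3. For the cluster 10 sums and the genes of cluster 10 the share with the lowest value in this library was 35.4%, beside 41.5% of all genes. With 1 library per genotype these are descriptions of libraries, and no test between genotypes was made.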

How the data were processed

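The matrices of 3 droplet libraries hold raw UMI counts as deposited, made by the authors with Cell Ranger 6.0.1 on mm10 per the file headers, and a table of cDC1s with cluster numbers, made with Seurat 4.0.0 per the submitters' notes. The paper's methods instead name Seurat version 3 in R 4.0.0. Barcodes were joined to that table within each library: UMIs equalled the table's for 4559 of 5806 cells and differed by at most 34 in the others. Counts were summed per library and cluster. Cluster 8 was tested against cluster 10 with edgeR 4.0.16 (R 4.3.3; TMM factors, filterByExpr, quasi-likelihood F-test, Benjamini-Hochberg over all 4229 genes tested), with the cluster as the only term. The SE is the log2 fold change divided by the root of F. The steps were tested on simulated counts.

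Named genes were the 10 largest and 10 smallest fold changes among calls without overlap, up to 3 in each direction and the most abundant member of each of 58 gene lists, and the 10 most abundant genes with a 95% interval within -0.5 and 0.5. Other list members are named with their values as members, and a few genes are not reported here. Cells, lists and genes were chosen with earlier results of these data known. Gene positions are from GENCODE M21, matched by Ensembl ID, and promoter windows from RefSeq. Doublets were scored with Scrublet (scanpy 1.11.5), whose automatic threshold marked 0, 0 and 539 barcodes, so the highest 6% of scores were used. Sums of 1 library share their pool of mice, and the library pairs them: deviations from the cluster means correlated across genes with 0.0756, -0.0229 and 0.0839. Alternatives were RLE and upper quartile factors, library size alone, DESeq2 1.42.0, other filters, the library as a block, thinning, doublets left out, each library left out, and clusters called on a part of the UMIs (leidenalg 0.10.2).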

Additional observations from a re-analysis of the deposited data

Results flagged for a closer look

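In 5 named genes the ratio of cluster 8 to cluster 10 lay above 0 on the log2 scale in 1 genotype and below 0 in another, with counting intervals on opposite sides. There was 1 library per genotype, so these differences were not tested, and the intervals cover counting error only. The ratios are of CPM from total UMIs. With the TMM factors of the test, the intervals of *Pmvk* and *Cd274* in the sGSN-/-Clec9a-/- library reached above 0, so 3 of the 5 kept intervals on opposite sides, while *Il1b*, *Cd74*, *Hspa8* and *Rpl37* then had such intervals too. Over the named genes no adjustment was made for how many were looked at. *Pmvk*, a mevalonate pathway kinase, had a log2 ratio of 0.692 in the WT library (95% counting interval 0.221 to 1.193), 1.516 in the sGSN-/- library (95% counting interval 0.913 to 2.183) and -0.631 in the sGSN-/-Clec9a-/- library (95% counting interval -1.248 to -0.010). *Cd274*, encoding PD-L1, had the same order, with 0.486 in the WT library (95% counting interval 0.101 to 0.889), 0.601 in the sGSN-/- library (95% counting interval 0.249 to 0.970) and -0.464 in the sGSN-/-Clec9a-/- library (95% counting interval -0.873 to -0.053). *Bst2*, an interferon-inducible membrane protein, had 0.880 in the sGSN-/- library (95% counting interval 0.554 to 1.222) and -0.533 in the sGSN-/-Clec9a-/- library (95% counting interval -0.878 to -0.185). *Lyz2*, a myeloid lysozyme, had 1.136 in the WT library (95% counting interval 0.706 to 1.596), 0.567 in the sGSN-/-Clec9a-/- library (95% counting interval 0.213 to 0.930) and -1.149 in the sGSN-/- library (95% counting interval -1.514 to -0.778). The macrophage markers as a whole were highest in the WT sum of cluster 8 among the sums of both clusters. *H2-Aa*, a class II chain, had small ratios of 0.210 in the sGSN-/-Clec9a-/- library (95% counting interval 0.137 to 0.283) and -0.291 in the sGSN-/- library (95% counting interval -0.356 to -0.225).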

How the results depend on the processing

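With RLE factors, a minimum of 20 CPM in the mean, the library as replicate block and doublets left out, 789 to 832 genes were higher in cluster 8 and 650 to 701 in cluster 10. The block gave 789 and 650 with 1380 of the 1479 calls kept, and it moved neither count by more than 1.5 times. Thinning cluster 8 to the depth of cluster 10 left 605 and 505. Without a filter 1317 of 13759 genes tested were higher in cluster 8 and 644 in cluster 10, while the median log2 fold change of the 4229 genes moved from 0.01 to 0.13. DESeq2 called 673 genes in cluster 8 and 418 in cluster 10. The causes of these moves were not tested. Leaving out 1 library gave 556 to 944 genes in cluster 8 and 381 to 753 in cluster 10, with fewer sums in each fit. Clusters called on 1 random set of UMIs and compared on the other gave 1431 and 1359 genes, over clusters of more cells, and 999 and 861 at the finer resolution chosen after seeing the data. The clustering was first run with scaled values and an unweighted graph and then replaced by centred values as planned. In all other settings no named gene turned. At the first resolution these log2 fold changes were on the other side: *Kit* (0.18), *Psma7* (0.053), *Znfx1* (-0.11), *Irf1* (1.08), *Socs1* (0.014), *Socs3* (0.29), *Cish* (0.99), *Ripk1* (0.20), *Bcl3* (0.78), *Hspa1b* (-0.67), *Bst2* (-0.69) and *Lyz2* (-0.95). At the finer one these were: *Lgals9* (0.20), *Psmb8* (0.35), *Stat2* (0.46), *Zbp1* (0.93), *Ddit3* (-0.0062), *Hspa8* (0.44), *Parp14* (0.51), *Itgae* (1.07) and *Lyz2* (-1.20). The *Cxcl9* cluster of the first comparison was mostly cluster 7, and the part of this in each turn was not tested. Depth limits cluster 10 most: 0 UMIs there allow up to 3.37 CPM, against 1.06 CPM in cluster 8.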

Other observations

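Some of the clearest differences lay in genes outside the lists, chosen here after their values were seen. *Hhex*, a homeobox transcription factor, was at 43.6, 35.4 and 48.5 CPM in cluster 8 against 379, 290.0 and 308 CPM in cluster 10 and 63.4 CPM in the other cDC1s (log2 fold change -2.80 ± 0.20 (SE)). *Gatm*, an enzyme of creatine synthesis, was at 32.9, 48.02 and 31.05 CPM in cluster 8 against 319, 309 and 254 CPM in cluster 10 (log2 fold change -2.76 ± 0.21 (SE)). Both were higher in cluster 10 in each library, as was *Slamf8*, a myeloid receptor of the SLAM family (log2 fold change -2.73), and *Plac8* (-1.65). *Ramp3*, which alters the ligands of calcitonin receptor-like receptor, was at 531, 541 and 287 CPM in cluster 8 against 10.6, 19.3 and 3.35 CPM in cluster 10 (log2 fold change 5.49 ± 0.39 (SE)). *Fabp5*, a fatty acid-binding protein, was at 272, 319 and 107 CPM in cluster 8 against 21.3, 45.1 and 10.04 CPM in cluster 10 (log2 fold change 3.37 ± 0.45 (SE)). *Sqstm1*, the autophagy receptor p62, was at 623, 529.8 and 469.6 CPM in cluster 8 against 70.9, 96.7 and 76.98 CPM in cluster 10 (log2 fold change 2.89 ± 0.20 (SE)). These 3 genes were higher in cluster 8 without overlap.

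*AW112010* was at 884, 1034 and 439 CPM in cluster 8 against 60.2, 67.7 and 26.8 CPM in cluster 10, and *Mir155hg*, the host of miR-155, had a log2 fold change of 2.64. *Malat1*, a nuclear RNA, was at 50329, 54393 and 47498 CPM in cluster 8 against 18954, 12824 and 22328 CPM in cluster 10 (log2 fold change 1.65 ± 0.19 (SE)). It was the most abundant gene of each cluster 8 sum, and the 10 most abundant genes held 19.4%, 19.5% and 21.4% of UMIs in cluster 8 and 14.4%, 15.1% and 16.6% in cluster 10.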
